A study of Mus musculus with 2 samples.

Results

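Expression of 5 genes of protein folding and stress recovery was examined in single LβT2 cells: Hspd1, Hspe1, Dnajb2, Bag2 and Ppp1r15b. They were chosen by name from results of these same libraries, namely their level, their GnRH over vehicle ratio, the share of cells that expressed them and their correlation with Btg2. These values are therefore given as a description. All 5 were present among the 1068 genes analysed here, of which 664 had at least 1 unique molecular identifier (UMI, the tag that marks 1 captured transcript) and 409 had at least 100 over both libraries.

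LβT2 is an immortalised mouse line derived from the gonadotrope of the anterior pituitary, the cell type that secretes the gonadotropins under the control of gonadotropin-releasing hormone (GnRH). Cells at passage 15, according to the labels, were grown in medium with serum and were exposed for 40 min to vehicle or to GnRH at 2 nM, then trypsinised and captured in droplets. Each treatment was measured in 1 library, with 1992 vehicle-treated and 1889 GnRH-treated cells. Cells of 1 library do not replicate a treatment. The differences between treatments were therefore not tested, and all intervals are for counting error alone.

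The analysed genes held 1126320 UMIs with vehicle and 1118763 with GnRH, with medians of 543.5 and 561.0 UMIs per cell. Levels are given as CPM, UMI counts scaled to the same total of analysed genes in each library. Nearly all of these genes lie on chromosome 1, so CPM here is not relative to the whole transcriptome. Of 8 gonadotrope markers, 3 were among the analysed genes. Scg2 was found in 100% of cells of both libraries, Inhbb in 76.4% of vehicle-treated and 72.7% of GnRH-treated cells, and Inha in 49.4% and 50.9%. The fibroblast markers Col3a1 and Col5a2 had 0 UMIs in each library.

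Molecular chaperones bind unfolded proteins and help them reach or regain their native form. Chaperonins enclose a protein in a chamber, whereas Hsp70 chaperones hold exposed segments and work with helpers that set the pace of their ATP cycle. When unfolded proteins accumulate, cells also slow protein synthesis by phosphorylating the translation factor eIF2α, and a phosphatase later removes this mark so that synthesis can resume. Secretory cells such as gonadotropes rely on both systems because of their heavy load of newly made protein.

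Within this group, Hspd1 encodes the mitochondrial chaperonin HSP60 and Hspe1 encodes its lid, HSP10. Dnajb2 encodes a J-domain protein, which stimulates the ATPase of Hsp70 and delivers clients to it. Bag2 encodes a BAG-domain cochaperone, which promotes nucleotide exchange on Hsp70 and inhibits the ubiquitin ligase CHIP. Ppp1r15b encodes CReP, the constitutive regulatory subunit that directs protein phosphatase 1 to eIF2α.

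Each gene is protein coding and lies on chromosome 1 of GRCm38. Hspd1 (ENSMUSG00000025980) spans chr1:55077835-55088243 on the minus strand and Hspe1 (ENSMUSG00000073676) spans chr1:55088132-55091307 on the plus strand. They are divergent neighbours whose 5′ ends overlap by 112 bases, with their 3′ ends, from which the UMIs were read, at the far ends. Dnajb2 (ENSMUSG00000026203) lies at chr1:75236406-75245692 on the plus strand, with no overlapping annotated gene. Bag2 (ENSMUSG00000042215) lies at chr1:33745484-33757795 on the minus strand, where the unclassified transcript Gm37905 overlaps it on the opposite strand. Ppp1r15b (ENSMUSG00000046062) lies at chr1:133131143-133139783 on the plus strand, and the unclassified transcript Gm26616 overlaps its 5′ end by 640 bases on the opposite strand. Whether counting used strand is not given, so the assignment of reads in these overlaps is uncertain. The annotation also holds 5 processed copies of Hspd1 and 6 of Hspe1 elsewhere in the genome, none of them in the gene list of the matrix, and reads shared with such copies are uncertain too.

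The promoter of Hspe1 is shown because Hspd1, on the other strand, starts inside it and beside it. RefSeq places the start of Hspe1 at position 55088148 and starts of Hspd1 at 55087932 and 55088243, that is 216 bases upstream and 95 bases downstream of it on the plus strand. The window below reads 5′ to 3′ along Hspe1, from 250 bases before its start (GRCm38.p6, chr1:55087898-55088197, plus strand). Capitals mark matches to the heat shock element, the binding motif of heat shock factors, searched on both strands as GAANNTTC and TTCNNGAA.
Hspe1: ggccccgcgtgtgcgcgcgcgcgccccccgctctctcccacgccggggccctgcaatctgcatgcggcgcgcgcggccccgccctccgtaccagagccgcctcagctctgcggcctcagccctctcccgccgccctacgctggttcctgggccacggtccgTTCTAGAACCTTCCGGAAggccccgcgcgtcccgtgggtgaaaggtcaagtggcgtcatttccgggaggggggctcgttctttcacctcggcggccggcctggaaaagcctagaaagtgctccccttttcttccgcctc
It held 3 overlapping matches, TTCTAGAA, GAACCTTC and TTCCGGAA, the first of which began 89 bases before the start of Hspe1. The window of the Hspd1 start at 55087932, the downstream one along Hspd1 itself, covers the same 3 matches on the other strand. The window of the Hspd1 start at 55088243 had none. Of 32851 promoter windows of this length, 4946 (15.1%) held at least 1 match and 84 (0.256%) held 3 or more.

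The promoter of Bag2 is shown because Bag2 had the highest GnRH over vehicle ratio of the group. The window covers chr1:33757701-33758000 of GRCm38.p6 on the minus strand, and capitals mark TGACG on either strand, the core of the cAMP response element (CRE), whose full form is TGACGTCA.
Bag2: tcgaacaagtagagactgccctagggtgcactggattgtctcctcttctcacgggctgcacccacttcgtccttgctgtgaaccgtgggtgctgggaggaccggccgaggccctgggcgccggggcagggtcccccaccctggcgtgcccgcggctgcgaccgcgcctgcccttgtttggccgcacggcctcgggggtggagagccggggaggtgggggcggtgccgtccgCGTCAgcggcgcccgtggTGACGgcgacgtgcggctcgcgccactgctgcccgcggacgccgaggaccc
This window had 2 matches to TGACG, beginning 19 bases and 1 base before the start, no match to TGACGTCA and no heat shock element. The windows of Dnajb2, with starts at 75236423 and 75236702, had 2 and 1 matches to TGACG and none to TGACGTCA or to the heat shock element. The Hspe1 window and the Hspd1 window at 55087932 covered the same single match to TGACG. The Hspd1 window at 55088243 had none, and no window of Hspe1 or Hspd1 held TGACGTCA. Of all windows, 20.8% held TGACG and 1.79% TGACGTCA, which contains it on both strands. These matches are letters in a window and do not show binding.

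The first question was whether transcripts of these genes differed in level after GnRH. Bag2 and Ppp1r15b were higher in the GnRH library, by 1.74-fold and 1.52-fold. The chaperonin genes Hspd1 and Hspe1 and the J-domain gene Dnajb2 were within 5% of the vehicle level in CPM. Of the 5 genes, 2 were thus 1.5-fold higher or more, 0 were lower by that factor, and 0 reached 2-fold. In the background of 409 genes, 1.5-fold was passed upwards by 10 (2.44%), downwards by 7 (1.71%) and in either direction by 17 (4.16%), and 2-fold was passed by 5 (1.22%), each of them higher. Because this contrast served to choose the genes, nothing is read from the difference between these shares.

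Bag2, the nucleotide exchange factor, went from 1485 UMIs with vehicle to 2561 with GnRH. Scaled, these were 1318 CPM (exact Poisson 95% interval 1252 to 1387) and 2289 CPM (2201 to 2380). The log2 ratio was 0.80 (exact conditional binomial interval 0.70 to 0.89), the seventh highest of the 409 genes. The counting intervals of the libraries lay far apart.

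Ppp1r15b, the phosphatase subunit, went from 1329 UMIs with vehicle to 2009 with GnRH. The levels were 1180 CPM (1117 to 1245) and 1796 CPM (1718 to 1876), for a log2 ratio of 0.61 (0.51 to 0.71) that ranked ninth. The ratio lay just above 1.5-fold, and its interval extended to 1.42-fold. With CPM averaged over cells the log2 ratio was 0.58, just under 1.5-fold.

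For the chaperonin Hspd1 there were 5344 UMIs with vehicle and 5470 with GnRH, at 4745 CPM (4618 to 4874) and 4889 CPM (4761 to 5021). The log2 ratio of 0.04 had an interval from -0.01 to 0.10. Its lid Hspe1 had 11964 and 11407 UMIs, at 10622 CPM (10433 to 10814) and 10196 CPM (10010 to 10385), a log2 ratio of -0.06 (-0.10 to -0.02). The small Hspe1 difference changed sign with the scaling, to 0.03 under TMM, a scaling that centres the bulk of genes at 0. Under TMM the log2 ratio of Hspd1 was 0.13, outside its counting interval.

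Dnajb2 had the fewest UMIs of the group, 687 with vehicle and 705 with GnRH. Its level was 610 CPM (565 to 657) and 630 CPM (584 to 678), with a log2 ratio of 0.05 (-0.11 to 0.20). A small change in either direction was not detectable at this depth. Over the 5 genes the median log2 ratio came to 0.05, against -0.09 (interquartile range -0.19 to 0.00) over the 409 genes.

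**Figure D1:**
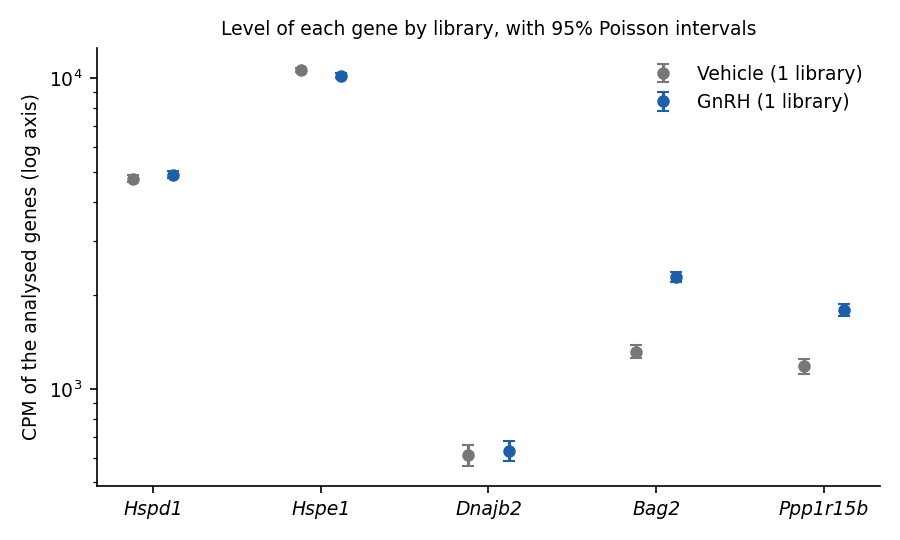
Level of each of the 5 genes in CPM of the analysed genes (log axis) in the vehicle library (grey) and the GnRH library (blue). Bars are 95% Poisson intervals and cover counting error only. Bag2 and Ppp1r15b are higher in the GnRH library, at 2289 against 1318 CPM and 1796 against 1180 CPM, and the other 3 genes are nearly level.

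**Figure D2:**
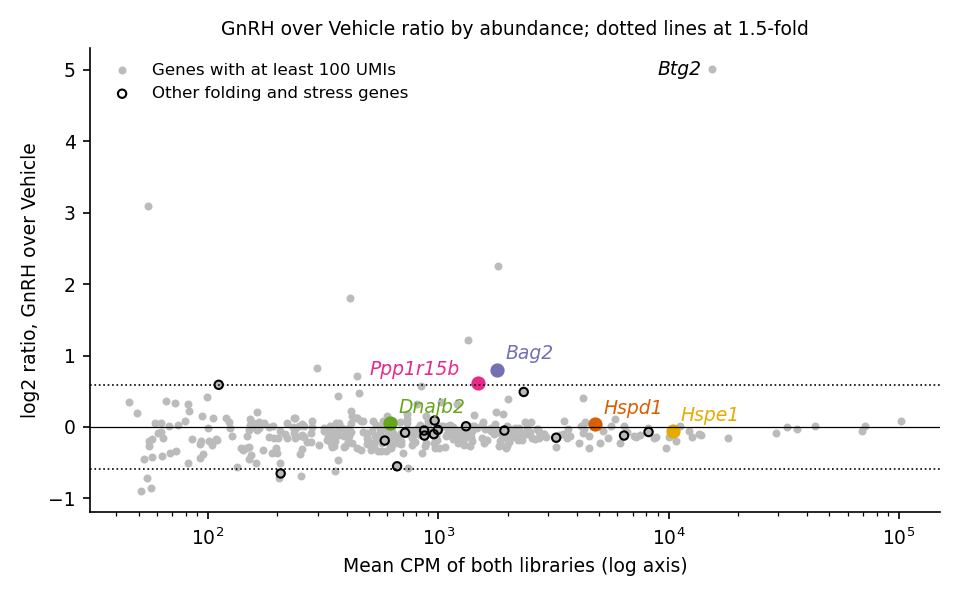
log2 ratio of GnRH over vehicle against mean CPM of both libraries (log axis) for 409 genes with at least 100 UMIs (grey points). The 5 genes are coloured and labelled, 16 further folding and stress genes are circled, and dotted lines mark 1.5-fold. Bag2 (0.80) and Ppp1r15b (0.61) lie above the upper line, and Btg2, at 5.01, is the highest point.

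Shallow cells were more frequent with vehicle, where 219 cells had under 300 UMIs, against 108 with GnRH. Ratios were therefore also formed within 3 depth classes of cells with the same limits in both libraries (up to 479, 480 to 637 and 638 to 1803 UMIs). The log2 ratio of Bag2 was 0.87 (0.67 to 1.08), 0.66 (0.50 to 0.82) and 0.86 (0.72 to 1.00) from the shallowest to the deepest class. That of Ppp1r15b was 0.53 (0.30 to 0.76), 0.56 (0.38 to 0.74) and 0.66 (0.51 to 0.81). Both genes were higher in the GnRH library at each depth. Ppp1r15b was under 1.5-fold in the first 2 classes, whereas Bag2 was above it in all 3. Dnajb2 was between 0.00 and 0.09 in the 3 classes, Hspe1 between -0.07 and -0.05 and Hspd1 between -0.02 and 0.12.

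The spread of the UMIs over cells was described next. At these low counts a higher mean by itself raises both the share of cells with a UMI and the mean among those cells, so the values below do not separate more expressing cells from more transcripts per cell. Bag2 was detected, with 1 UMI or more, in 951 vehicle-treated cells (47.7%, exact 95% binomial interval 45.5 to 50.0%) and in 1294 GnRH-treated cells (68.5%, 66.4 to 70.6%). Among cells with a Bag2 UMI, the mean was 1.56 UMIs with vehicle and 1.98 with GnRH. Cells with 3 or more made up 5.57% and 17.9%.

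Cells were also compared at one common depth, by drawing 300 UMIs at random from every cell that had as many, 1773 with vehicle and 1781 with GnRH. In these thinned cells Bag2 was found in 32.4% (30.3 to 34.7%) and 49.6% (47.3 to 52.0%) of cells. The higher share in the GnRH library thus remained at equal depth.

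Ppp1r15b was found in 893 vehicle-treated cells, or 44.8% (42.6 to 47.0%), and in 1142 GnRH-treated cells, or 60.5% (58.2 to 62.7%). At equal depth the shares were 28.8% (26.7 to 30.9%) and 41.9% (39.6 to 44.2%). Cells with a Ppp1r15b UMI had 1.49 on average with vehicle and 1.76 with GnRH, and cells with 3 or more made up 4.47% and 11.5%. For both genes the median was 0 UMIs per cell with vehicle and 1 with GnRH.

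The other 3 genes showed little difference in shares. Hspe1 was found in 96.6% (95.7 to 97.4%) of vehicle-treated and 97.6% (96.8 to 98.2%) of GnRH-treated cells, with a median of 5 UMIs per cell in each library. Hspd1 was found in 88.0% (86.4 to 89.3%) and 89.8% (88.3 to 91.1%). Dnajb2 was found in 28.5% (26.5 to 30.6%) and 30.0% (28.0 to 32.1%), and no cell had over 4 of its UMIs. At equal depth Dnajb2 was found in 17.4% (15.7 to 19.3%) and 17.3% (15.6 to 19.2%). Over 20 thinnings the share for Hspd1 ranged from 72.5 to 75.6% with vehicle and from 74.1 to 76.8% with GnRH, and that for Hspe1 from 93.9 to 95.3% and from 93.0 to 95.2%. These libraries offered no cell type known to lack the 5 transcripts, so how much free RNA adds to each share could not be measured.

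**Figure D3:**
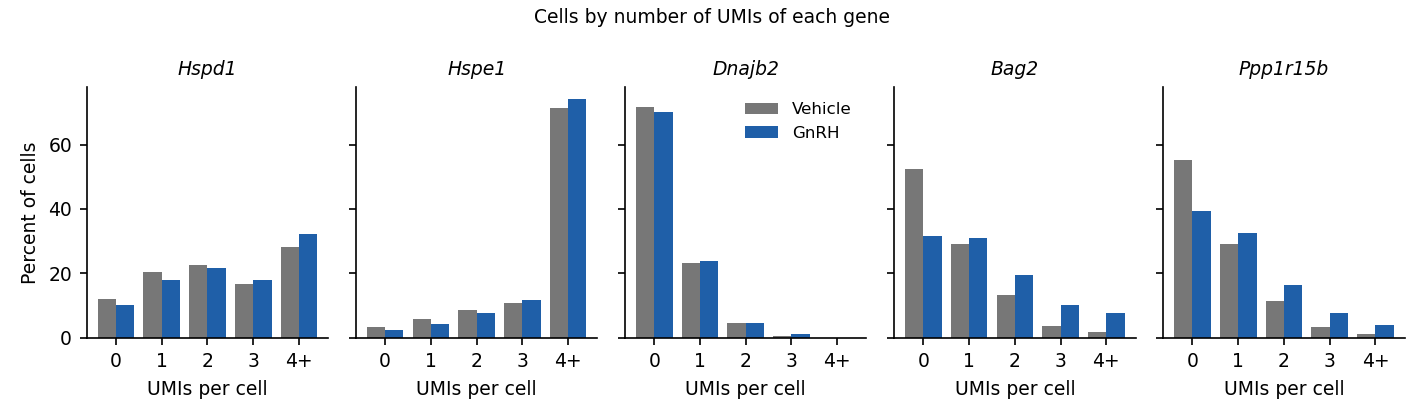
Percent of cells with 0, 1, 2, 3 or at least 4 UMIs of each gene in the vehicle (grey, 1992 cells) and GnRH (blue, 1889 cells) libraries, without thinning. For Bag2 cells without a UMI go from 52.3% to 31.5% and for Ppp1r15b from 55.2% to 39.5%, whereas Dnajb2 stays at 71.5% and 70.0%.

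Cell-to-cell variation was compared with what Poisson counting gives once the UMI total of each cell is taken into account. The squared coefficient of variation over this expectation was 1.23 with vehicle and 1.21 with GnRH for Hspe1, and 1.19 and 1.14 for Hspd1. It was 1.14 and 1.12 for Bag2, 1.11 and 1.17 for Ppp1r15b, and 0.994 and 1.04 for Dnajb2. Among genes whose mean reached 0.1 UMI per cell, the median ratio was 1.07 for either treatment, and Btg2 had 1.95 and 3.59. Hspe1 ranked highest of the 5 genes, at 50 of 344 genes with vehicle and 71 of 342 with GnRH, and Hspd1 ranked 67 and 108. Cells without an Hspe1 UMI made up 3.36% with vehicle, against 2.13% expected, and 2.44% with GnRH, against 1.51% expected. Cells without a Bag2 UMI made up 31.5% of the GnRH library, against 28.9% expected. Cells without a Ppp1r15b UMI made up 39.5%, against 37.1% expected.

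The next question was whether cells with more Btg2, the early response gene whose ratio was highest among the 409 genes, also had more of these transcripts. Correlations over the 1781 thinned GnRH-treated cells are a description, since the cells share 1 library and the counts are sparse. Btg2 correlation was one of the values by which the genes were chosen. Pearson's r with Btg2, as the mean of 20 thinnings, was 0.171 for Bag2, the third highest of 341 genes. It was 0.103 for Ppp1r15b, the eleventh highest. Both values are weak. Dnajb2 was at 0.042, Hspe1 at 0.007 and Hspd1 at 0.003, against a median of -0.011 and a highest value of 0.361, that of Coq10b. In the 1773 thinned vehicle-treated cells, r with Btg2 was -0.023 for Bag2 and 0.020 for Ppp1r15b. There the chaperonin genes were among the lowest of 343 genes, Hspd1 at -0.055 (rank 340) and Hspe1 at -0.046 (rank 334), and Dnajb2 was at -0.006. The range over these genes was narrow, from -0.038 at the 5th percentile to 0.042 at the 95th, so these values are weak too. Btg2 itself takes up to 42 of the 300 UMIs of a thinned GnRH-treated cell. With 300 UMIs drawn from the other genes, r with GnRH was 0.203 for Bag2, 0.119 for Ppp1r15b, 0.053 for Dnajb2, 0.050 for Hspe1 and 0.026 for Hspd1.

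**Figure D4:**
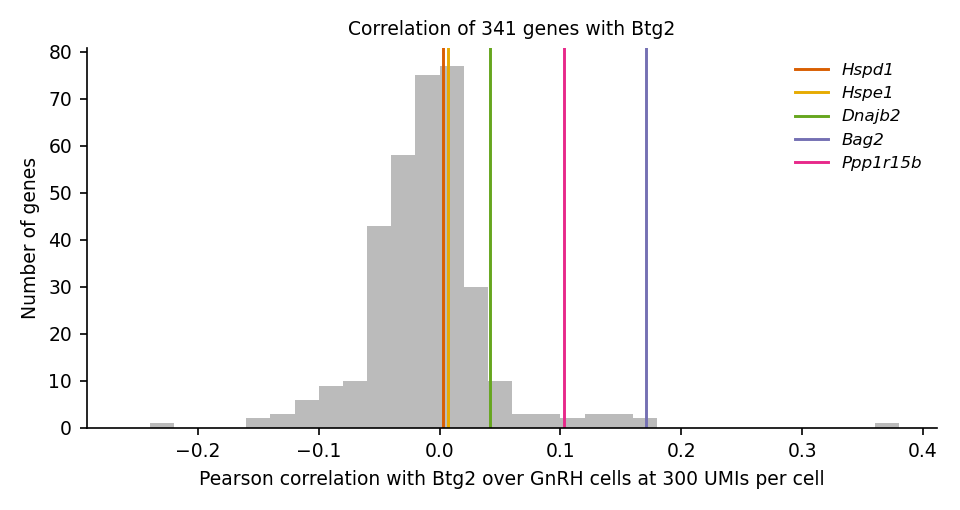
Histogram of Pearson's r with Btg2 for 341 genes over 1781 GnRH-treated cells thinned to 300 UMIs, as number of genes per bin of r. Coloured lines mark the 5 genes. Bag2 (0.171) and Ppp1r15b (0.103) lie in the upper tail, and Hspd1 and Hspe1 lie near 0.

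When the thinned GnRH-treated cells were ranked by Btg2 and cut into 4 groups of 445 or 446 cells, mean Bag2 was 0.563 UMIs per cell (0.495 to 0.637) in the group with least Btg2. It was 0.575 (0.507 to 0.650), 0.809 (0.728 to 0.897) and 0.962 (0.873 to 1.06) in the next 3. The vehicle-treated cells were at 0.418 (0.389 to 0.450), below each of the 4 groups. The group with most Btg2 was 1.71 times the one with least (1.46 to 2.01).

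Ppp1r15b was at 0.377 UMIs per cell (0.322 to 0.438), 0.537 (0.471 to 0.610), 0.690 (0.615 to 0.772) and 0.575 (0.507 to 0.650) from least to most Btg2, against 0.342 (0.315 to 0.370) in vehicle-treated cells. The group with least Btg2 overlapped the vehicle level, and the highest value came in group 3. Median UMI totals before thinning were 539.5, 599.0, 618.0 and 555.0 in the 4 groups, and their part in this order was not tested. The ratio of the group with most to the group with least Btg2 was 1.06 (0.983 to 1.14) for Hspe1 and 1.02 (0.917 to 1.14) for Hspd1. For Dnajb2 these groups were at 0.204 and 0.157 UMIs per cell, and the interval of their ratio, 0.944 to 1.81, was wide.

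**Figure D5:**
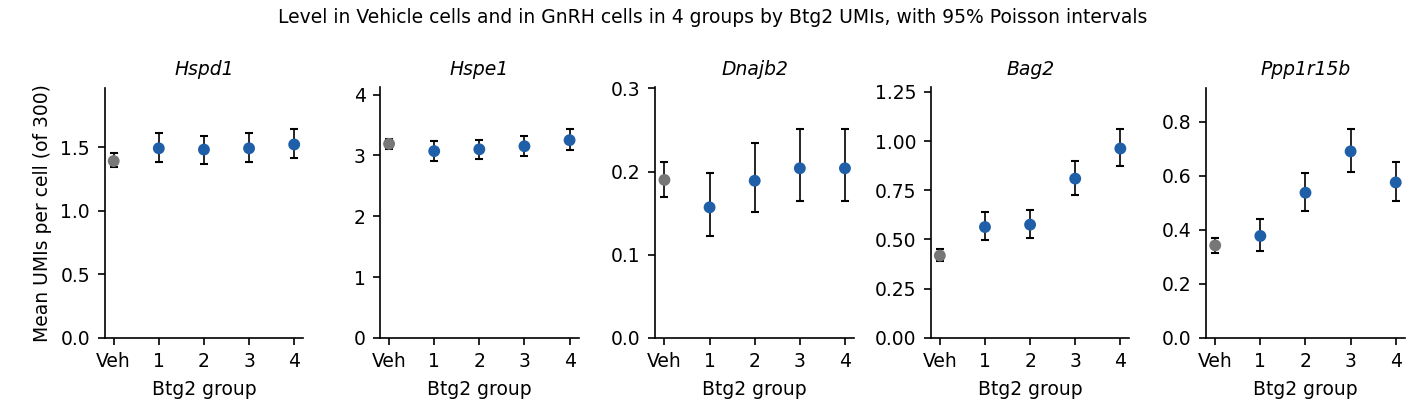
Mean UMIs per cell of each gene after thinning to 300 UMIs, in vehicle-treated cells (grey) and in GnRH-treated cells in 4 groups from least (1) to most (4) Btg2 (blue). Bars are 95% Poisson intervals. Bag2 goes from 0.563 to 0.962 and Ppp1r15b peaks at 0.690 in group 3, while Hspd1 and Hspe1 are nearly flat.

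A related view used all UMIs, with Btg2 left out of the totals. In the 262 GnRH-treated cells with up to 2 Btg2 UMIs, Bag2 was at 1980 CPM (1725 to 2262), against 1320 CPM (1253 to 1389) in vehicle-treated cells and 2402 CPM (2306 to 2502) in the remaining 1627 GnRH-treated cells. The 3 intervals did not overlap. Ppp1r15b was at 1292 CPM (1088 to 1524) in these 262 cells, which overlapped the 1181 CPM (1118 to 1246) of vehicle-treated cells, and at 1914 CPM (1828 to 2002) in the remainder. The 262 cells had a median of 436.5 UMIs, fewer than the 586.0 of the remainder and the 543.5 of vehicle-treated cells, and the part of depth in these values was not tested. Hspd1 was at 4941 CPM (4532 to 5376) in the 262 cells and at 5051 CPM (4911 to 5194) in the remainder, and the latter interval lay above the 4749 CPM (4623 to 4878) of vehicle-treated cells. Hspe1 was at 9881 CPM (9300 to 10489) in the 262 cells, 10581 CPM (10378 to 10787) in the remainder and 10632 CPM (10442 to 10824) in vehicle-treated cells.

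Within a library, Hspd1 and Hspe1 had the highest correlation of the 10 pairs that the 5 genes form. At equal depth r was 0.095 in each library. The background was the 57291 pairs of the 339 genes that averaged 0.1 UMI or more per cell in both libraries before thinning. Of these pairs, 0.136% with vehicle and 0.138% with GnRH were higher. The value is weak in absolute terms, as is the range over all pairs, whose 99th percentile was 0.048 and 0.049. The other 9 pairs were between -0.038 and 0.045. Bag2 and Ppp1r15b marked both ends of that range, at -0.038 with vehicle and 0.045 with GnRH, and this difference was not tested. Both were detected together in 8.65% of vehicle-treated and 21.1% of GnRH-treated thinned cells (means of 20 thinnings), against 9.26% and 20.2% for independent detection. Hspd1 and Hspe1 were detected together in 70.2% and 71.1%, against 70.1% and 70.9% for independent detection.

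The genes most alike in pattern were taken as the 3 with the highest r averaged over both libraries, among 339 genes. For Hspe1 these were Mcm3 (0.106) and Mcm6 (0.102), subunits of the replicative helicase, and Hspd1 (0.095). For Hspd1 they were Hspe1, Mcm6 (0.079) and Mcm3 (0.072). For Bag2 they were Btg2 (0.074), Igfbp2 (0.043) and Igfbp5 (0.039), and for Ppp1r15b they were Btg2 (0.061), Klf7 (0.044) and Cnnm3 (0.043). The values for Dnajb2 were lowest, with 3110009E18Rik and Nfasc at 0.036 and Ube2f at 0.028. Some of these averages combine unlike values. Those of Bag2 and Ppp1r15b with Btg2 join the r near 0 with vehicle and the higher r with GnRH given above, and that of Bag2 with Igfbp2 joins 0.090 with vehicle and -0.004 with GnRH.

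Further genes of folding and stress response gave the setting for the group. Of 31 other folding genes listed, 8 were among the analysed genes and 7 reached 100 UMIs. None of these 7 was 1.5-fold higher, and 1 was 1.5-fold lower, against 2.44% and 1.71% of the 409 genes. Their median log2 ratio was -0.10, close to the -0.09 of all 409 genes. Pdcl3, a phosducin-like cochaperone of the cytosolic chaperonin CCT, went from 2203 to 3073 UMIs, a log2 ratio of 0.49 (0.41 to 0.57) that stayed under 1.5-fold and ranked twelfth. At the other end were genes for assembly factors of the respiratory chain. Tmem177, which acts on cytochrome oxidase, was the one past 1.5-fold, with 285 and 180 UMIs and a log2 ratio of -0.65 (-0.93 to -0.38). It was no longer past 1.5-fold under TMM (-0.56) or median-of-ratios scaling (-0.57). Bcs1l, which acts on complex III, had 886 and 603 UMIs and a log2 ratio of -0.55 (-0.70 to -0.39).

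The remaining folding genes had log2 ratios near the median of all genes, and the interval of Timm17a excluded 0. The CCT partner Txndc9 was at -0.05, the peptidyl-prolyl isomerase Ppil3 at -0.05, the glycoprotein folding sensor Uggt1 at -0.10 and the mitochondrial import subunit Timm17a at -0.12 (-0.17 to -0.08). Under TMM the log2 ratio of Timm17a was -0.03. Dnajb3, a relative of Dnajb2, had 0 UMIs in both libraries.

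Of 31 other genes of stress response, quality control in the endoplasmic reticulum and autophagy, 11 were analysed and 9 reached 100 UMIs, with a median log2 ratio of -0.07. Of these 9, 1 was 1.5-fold higher and 0 were lower by that factor, beside the same 2.44% and 1.71% over all 409. The higher one was Bok, a BCL2 family member, with 100 and 150 UMIs and a wide interval around its log2 ratio of 0.59 (0.22 to 0.97), and it fell short of 1.5-fold, at 0.52, with CPM averaged over cells. Among the autophagy genes, the log2 ratio was 0.01 for Rb1cc1, -0.04 for Atg9a and -0.12 for Atg4b, with counting intervals that included 0, and -0.19 (-0.35 to -0.03) for Atg16l1. The ubiquitin pathway genes Ube2w (0.09) and Vcpip1 (-0.08) also had intervals that included 0. Ubxn4, which acts in the removal of misfolded proteins from the endoplasmic reticulum, was at -0.15 (-0.22 to -0.08). Under TMM the log2 ratios of Atg16l1 and Ubxn4 were smaller, at -0.10 and -0.06. Tmbim1 had 15 and 16 UMIs and Hsfy2 had 0 in both libraries.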

How the data were processed

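GEM Drop-seq, a droplet-based 3′ single-cell RNA-seq assay, was run on 1 vehicle-treated and 1 GnRH-treated culture of LβT2 cells. The submitters' notes name Cell Ranger 1.3 and genome mm10, from which the authors obtained UMI counts, deposited as raw whole numbers for each gene in each called cell. The annotation and the use of strand were not given in the sources used here. The table analysed here held 1068 of 27998 listed genes, or 3.81%, and all 1062 of them that could be placed in GENCODE M21 (GRCm38) lay on chromosome 1. An incomplete last line was left out. Cells were named by treatment and number, so barcodes shared by the libraries could not be counted.

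The 5 genes and the lists of other folding and stress genes were chosen with earlier results of these data known. For each library, UMIs of all called cells were added up per gene and expressed as CPM of the analysed genes. Intervals at 95% are exact Poisson for sums, Clopper-Pearson for shares and conditional binomial for ratios, and cover counting error only. No test was run. A gene was called when its ratio passed 1.5-fold in either direction and it had 100 UMIs or more in total. UMIs were not divided by transcript length, and CPM was compared between libraries, not between genes. Thinning to 300 UMIs per cell was repeated 20 times, and thinned shares given with an interval and the Btg2 groups come from the first repeat, whereas correlations, joint detection and the thinned differences between shares under the alternatives are means of all 20. No doublet caller was run, and leaving out the 5% of cells with most UMIs of each library served as the alternative. Other alternatives were TMM and median-of-ratios scaling, mean CPM per cell, no scaling, Btg2 left out of the totals, other depths of thinning, lower count minimums, rank and log correlations and a plain Poisson expectation. Genes named besides the 5 were cell type markers, Btg2, listed folding and stress genes with at least 100 UMIs, the 3 genes most correlated with each of the 5, and overlapping annotated genes. The values of 1 listed gene are not reported here. Coq10b, Dnajb3, Tmbim1 and Hsfy2 were named after their values were seen. Promoter windows came from RefSeq (GRCm38.p6), which matched Hspd1, Hspe1, Dnajb2 and Bag2. Scripts ran in Python 3.11.15 with scipy 1.17.1, and edgeR 4.0.16 supplied the TMM factors. The interval, thinning and correlation steps were tested on simulated data.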

Additional observations from a re-analysis of the deposited data

How the results depend on the processing

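No paired analysis was possible because a single library represented each treatment. The 3 depth classes of cells were chosen after seeing the data. Bag2 and Ppp1r15b stayed higher in the GnRH library under each alternative, with log2 ratios from 0.66 to 0.89 and from 0.53 to 0.70. The log2 ratio of Bag2 left its counting interval in the middle depth class, at 0.66. That of Hspd1 was 0.12 under median-of-ratios, 0.13 under TMM, 0.11 unscaled, 0.12 in the shallowest class and -0.02 in the deepest. That of Hspe1 was 0.02, 0.03 and 0.01 under the same 3 scalings and -0.02 when totals excluded Btg2. Both median-of-ratios and TMM scale most genes towards a ratio of 1 and moved the median of all genes from -0.0949 to -0.0140 and -0.0033, with 11 genes at least 1.5-fold higher and 5 lower under either, against 10 and 7. These counts were 18 and 17 with a minimum of 20 UMIs and 34 and 40 with a minimum of 1, since genes of low count enter, and 5 and 0 at 2-fold.

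Thinning lowers every share. The GnRH minus vehicle difference in the share of cells moved from 20.76 to 17.52 (300 UMIs) and 13.70 (200 UMIs) percentage points for Bag2, from 15.63 to 11.90 and 9.05 for Ppp1r15b, and from 0.93 to -0.21 and -0.32 for Hspe1, each thinned value as the mean of 20 thinnings. Without thinning, where depth is shared by all genes of a cell, r with Btg2 was 0.208 for Hspd1, 0.265 for Hspe1, 0.134 for Dnajb2, 0.340 for Bag2 and 0.275 for Ppp1r15b, and r of Hspd1 with Hspe1 was 0.440 with vehicle and 0.398 with GnRH. The plain Poisson expectation, which has no term for depth, took the variation of Hspe1 to 2.46 and 2.23. The Bag2 log2 ratio between cells with over 2 and up to 2 Btg2 UMIs was 0.28, against 0.77 between the groups with most and least Btg2, and the cause was not tested. Low counts limit Dnajb2 most, whose interval spans log2 ratios from -0.11 to 0.20.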
